A study of Mus musculus with 2 samples.

Results

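Axon guidance and neural adhesion genes are those of the large families of cell-surface and secreted proteins by which growing axons find their way and neurons recognise each other. They were taken by symbol: semaphorins, plexins, neuropilins, ephrins, Eph receptors, cadherins, protocadherins, contactins, neurexins, Cadm, Ncam and Igsf genes, leucine-rich repeat adhesion genes, receptor tyrosine phosphatases, and the slit, robo, netrin, neuroligin, teneurin and L1 families. A gene counted as a member when it had a row of its own in the authors' table and both of its values were above 0, and 48 of the 2317 such rows (2381 rows in all) were members. RNA had been sequenced from the E14.5 (mid-gestation) cortex of B6/129 mice, with 1 library per genotype and 2 in all. The library called Trrap-deleted came from TrrapF/F NestinCre+ embryos, in which a Nestin-driven Cre removes Trrap in neural progenitors and their descendants, and the library called control, entered as wild type, came from TrrapF/+ NestinCre+ embryos. Both therefore carried the Cre and at least 1 floxed allele, and cells outside the Nestin lineage (vessels, microglia, meninges) keep Trrap in both. The number and sex of the embryos behind each library are not given.

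Trrap is the scaffold of several histone acetyltransferase complexes and a cofactor of the transcription factors Myc and E2F. Guidance works through matched pairs: semaphorins bind plexins, with neuropilins as co-receptors for the secreted class, and ephrins bind Eph receptors, with signals that can run in both directions because both partners sit in membranes. The receptors act on the growth cone through cytoplasmic effectors such as the collapsin response mediator proteins. Cadherins, protocadherins, contactins and neurexins then hold chosen partners together and help to form synapses.

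Values are in FPKM, read fragments scaled to transcript length and library size, a scale on which genes can be compared with each other. The table holds only loci that passed the authors' own test, so "listed" means passing it and a gene that is not listed is not thereby unchanged. With 1 library per genotype there is no replicate error, no test was run here, and every "higher" or "lower" is a statement about these 2 libraries, always as Trrap-deleted against control. The authors' deposited table gives the members q-values from 0 to 0.0417, with 31 of the 48 under 0.01. The highest q-value of all rows was 0.04998. The share of all rows under 0.01 was not computed, so this count is not read as a trait of the members. In bulk tissue, a smaller share of cells of a type and less RNA per cell cannot be told apart.

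Several facts of the whole table move with genotype. Trrap has no row, so its transcript gives no check of the labels. All 3 rows on chromosome Y were higher (summed 0.122 against 42.0 FPKM) and Xist was lower (313 against 142 FPKM). The libraries thus differ in their share of male tissue, and sex cannot be told apart from genotype in any difference given here. Without chromosomes X and Y, 37 of 47 members were higher (78.7%), beside 59.0% of all rows. Microglial and leukocyte markers were higher in 8 of 8 listed genes of 11 (summed 10.8 against 28.1 FPKM) and meningeal markers in 5 of 5 of 10 (summed 2.66 against 15.4 FPKM). Over all rows 58.4% were higher and 41.6% lower. All of these markers had a mean under 9.15 FPKM. At a mean up to 2.82 FPKM 78.7% of all rows were higher, and from there to 9.15 FPKM 70.8%. None of 9 endothelial markers was listed, and 3 of 10 ventral telencephalic markers were, all lower (summed 10.7 against 2.35 FPKM). Of the choroid plexus, erythroid and oligodendrocyte lists 1 gene each was listed: Ttr (0.104 against 3.31 FPKM) and Hbb-y (96.8 against 157 FPKM) were higher and Olig2 (0.423 against 0.111 FPKM) was lower. The radial glial markers Slc1a3 (30.7 against 55.1 FPKM) and Vim (632 against 387 FPKM) went opposite ways. Of 10 projection neuron markers, Bcl11b, Fezf2 and Neurod6 were listed, all lower by at most 0.41 on the log2 scale (the direction of Neurod6 flipped when both libraries were rescaled to equal summed FPKM). The part of these differences in the members' values was not tested beyond what is given beside them.

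Most listed guidance and adhesion genes were higher after Trrap deletion. Of the 48 members 37 were higher (77.1%), where 58.4% of all rows were, and 11 were lower (22.9%), where 41.6% of all rows were. The median log2 fold change of the members was 0.82 (1.77-fold) beside 0.55 over all rows. At least 2-fold differences were found in 16 members upward (33.3%, against 25.6% of all rows) and in 6 downward (12.5%, against 13.3%). The lowest, median and highest member stood at 0.0691, 7.94 and 92.9 FPKM in the control and at 0.211, 10.7 and 118 FPKM in the Trrap-deleted library. Rescaled so that the median of all rows is 0, a shift of 0.55 in log2, 35 members were higher and 13 lower, and the 2-fold counts turned to 4 higher and 9 lower. Rescaled to equal summed FPKM, 38 were higher (79.2%, beside 59.0% of all rows) and 29 at least 2-fold higher. The 2-fold shares of all rows were not computed after rescaling.

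**Figure D1:**
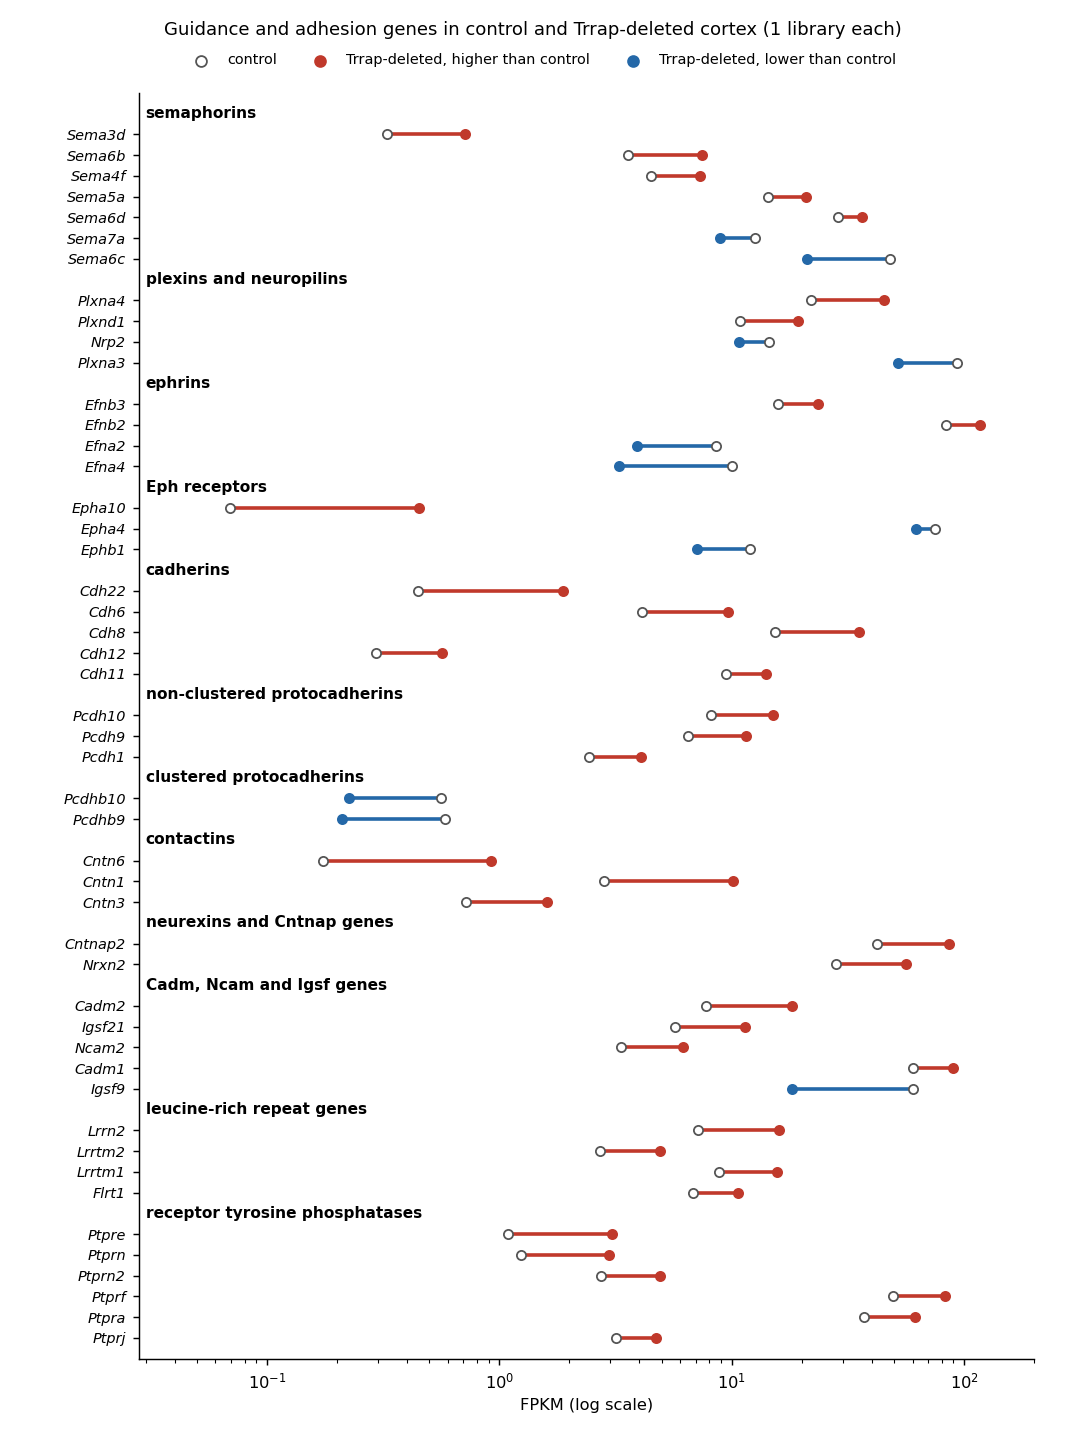
FPKM of each of the 48 members (log axis) in the control library (open circles) and the Trrap-deleted library (filled circles, red where higher and blue where lower), grouped by family, with 1 library per genotype and no error bars. The cadherins, contactins, leucine-rich repeat genes and receptor tyrosine phosphatases hold only red members, whereas ephrins, semaphorins and the receptors of both hold red and blue ones. Of all rows 58.4% were higher.

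The order of the members by level changed at the top. In the control library Plxna3 was first (92.9 FPKM), followed by Efnb2 (83.3), Epha4 (75.02) and Igsf9 (60.2). In the Trrap-deleted library Efnb2 was first (118 FPKM), followed by Cadm1 (89.6), Cntnap2 (86.2) and Ptprf (82.6), with Plxna3 at rank 8 and Igsf9 at rank 16.

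Because Trrap works with Myc and E2F, the 300 bases around each start site were searched for their letters. RefSeq promoter windows (250 bases before to 50 after the start, build GRCm38.p6) were found for 38 of the 48 members, 49 windows in all. The Myc E-box CACGTG, a palindrome, was in 3 of these windows (6.12%) and in 7.15% of all 32851 windows in the table. One of the E2F motifs TTTCCCGC, TTTGGCGC and TTCCCGCC, on either strand, was in 2 (4.08%) against 3.21% of all windows; TTTCCCGC and TTCCCGCC can overlap by letters. The 4 member windows with a match follow 5′ to 3′, because they show where the letters lie, with the matches in capitals. They belong to 3 members that were higher (Cadm2, Cdh22 and Sema6d, whose direction flips after rescaling to a median of 0) and to 1 that was lower (Igsf9).
Igsf9, chr1:172481963-172482262, plus strand: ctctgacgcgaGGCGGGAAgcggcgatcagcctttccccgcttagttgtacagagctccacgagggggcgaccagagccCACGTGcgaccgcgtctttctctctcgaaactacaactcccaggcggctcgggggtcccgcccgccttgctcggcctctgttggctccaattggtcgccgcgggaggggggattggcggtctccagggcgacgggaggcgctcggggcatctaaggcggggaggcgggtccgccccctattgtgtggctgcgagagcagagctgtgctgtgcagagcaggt
Cadm2, chr16:67620859-67621158, minus strand: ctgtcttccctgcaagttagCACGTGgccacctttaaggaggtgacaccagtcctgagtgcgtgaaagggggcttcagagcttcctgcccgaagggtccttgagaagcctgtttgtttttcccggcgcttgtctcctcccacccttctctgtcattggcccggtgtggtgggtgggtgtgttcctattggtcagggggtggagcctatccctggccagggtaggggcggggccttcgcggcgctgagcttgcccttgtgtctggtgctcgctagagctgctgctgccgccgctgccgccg
Cdh22, chr2:165234688-165234987, minus strand: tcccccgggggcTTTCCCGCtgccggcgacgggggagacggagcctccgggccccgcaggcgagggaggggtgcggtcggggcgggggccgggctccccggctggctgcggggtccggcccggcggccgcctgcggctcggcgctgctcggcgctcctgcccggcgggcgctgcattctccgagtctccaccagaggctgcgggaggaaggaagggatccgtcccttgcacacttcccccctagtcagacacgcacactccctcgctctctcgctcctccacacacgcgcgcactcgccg
Sema6d, chr2:124089719-124090018, plus strand: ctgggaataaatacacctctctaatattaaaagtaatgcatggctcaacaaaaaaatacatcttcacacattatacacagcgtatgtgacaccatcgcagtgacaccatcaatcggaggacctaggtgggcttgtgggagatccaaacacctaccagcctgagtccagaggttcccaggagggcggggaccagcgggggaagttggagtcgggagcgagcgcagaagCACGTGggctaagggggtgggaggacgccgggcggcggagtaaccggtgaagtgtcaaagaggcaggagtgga
Igsf9, the member with the largest decrease, holds both kinds of letters: the E-box begins 171 bases before the start, and the E2F letters, on the opposite strand, 239 bases before it. In Cadm2 and Sema6d the E-box begins 230 and 23 bases before the start, and Sema6d has a second window without a match. In Cdh22 the E2F letters begin 238 bases before the start. The member windows held a median of 16 CpG pairs, with 15 in the 39 windows of members listed higher and 20.5 in the 10 windows of members listed lower, beside 7 over all windows. All windows include those of genes that were not listed. Members were not compared with the windows of the other listed rows. A match of letters is a description of the window and not a binding site.

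Semaphorins, cues that mostly repel growth cones, were listed in 7 of 20 annotated genes, 5 higher and 2 lower (4 and 3 after rescaling to a median of 0, where Sema6d flips). The largest rise was in Sema3d, a secreted class 3 member, which went from 0.329 to 0.714 FPKM (2.17-fold). Sema6b, a transmembrane class 6 member, went from 3.59 to 7.45 FPKM (2.07-fold), and its relative Sema6c went the other way, from 48.2 to 21.1 FPKM (2.28-fold lower). Sema6d, the third of this class, stood at 28.7 and 36.4 FPKM, the smallest difference among the members that were higher. The class 6 genes, which bind class A plexins, were thus split, and the one with the highest control level was the one that was lower. Sema4f went from 4.50 to 7.34 FPKM and Sema5a, which carries thrombospondin repeats, from 14.3 to 20.98 FPKM. Sema7a, which is anchored in the membrane by a lipid and also acts through integrins, was 1.42-fold lower (12.7 to 8.92 FPKM).

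The semaphorin receptors were split as well, with 2 higher and 2 lower of 11 annotated plexins and neuropilins, beside 58.4% of all rows higher. Plxna4, which serves class 3 semaphorins with neuropilins and binds class 6 members directly, (chromosome 6, 32094565 to 32538192, mm9) went from 21.9 to 45.3 FPKM (2.07-fold). Plxna3, its X-linked relative (X, 71574342 to 71590328), fell from 92.9 to 51.96 FPKM (1.79-fold lower). The libraries also differ in sex, and the part of sex in this X-linked value was not tested. In the control Plxna3 was far above Plxna4, and in the Trrap-deleted library the pair stood close together. Nrp2, the neuropilin that binds Sema3f, went from 14.501 to 10.8 FPKM (1.35-fold lower), while Nrp1 was not listed. Plxnd1, a receptor known from blood vessels as well as from neurons, went from 10.9 to 19.2 FPKM (1.77-fold). With no endothelial marker listed, this gene has no listed vessel marker beside it.

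As deposited, the 4 listed ephrins divided by class, 2 higher and 2 lower, beside 58.4% of all rows higher. The A ephrins, tethered by a lipid anchor, were lower: Efna4 went from 10.03 to 3.26 FPKM (3.07-fold lower) and Efna2 (chromosome 10, 79642227 to 79652755) from 8.52 to 3.89 FPKM (2.19-fold lower). The B ephrins, which span the membrane and signal back into their own cell, were higher: Efnb3 went from 15.8 to 23.5 FPKM (1.49-fold) and Efnb2 from 83.3 to 118 FPKM (1.41-fold). After rescaling to a median of 0, however, Efnb2 flips to -0.05 in log2 and Efnb3 stands at 0.03. The listed locus of Efna4 is 3.59 times the RefSeq gene length, so its value may hold reads of a neighbour. The other 4 of 8 annotated ephrins were not listed.

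Of 14 annotated Eph receptors 3 were listed, 1 higher and 2 lower, beside 58.4% of all rows higher. Epha4, a receptor for ephrins of both classes, was nearly level at 75.02 and 61.96 FPKM (1.21-fold lower), the smallest difference of all members, and it turns to 0.07 in log2 when the libraries are rescaled to equal summed FPKM. Ephb1, a receptor of B ephrins, went from 11.98 to 7.08 FPKM (1.69-fold lower). Epha10, which lacks kinase activity, had the largest fold of all members (6.55-fold) at the lowest level, 0.0691 against 0.453 FPKM, and with a pseudocount of 1 its log2 fold change went from 2.71 to 0.44. Ephb1 was thus lower in the same library in which both listed B ephrins were higher as deposited. After rescaling to a median of 0 those ephrins lay near 0 in log2 (Efnb2 -0.05, Efnb3 0.03).

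**Figure D2:**
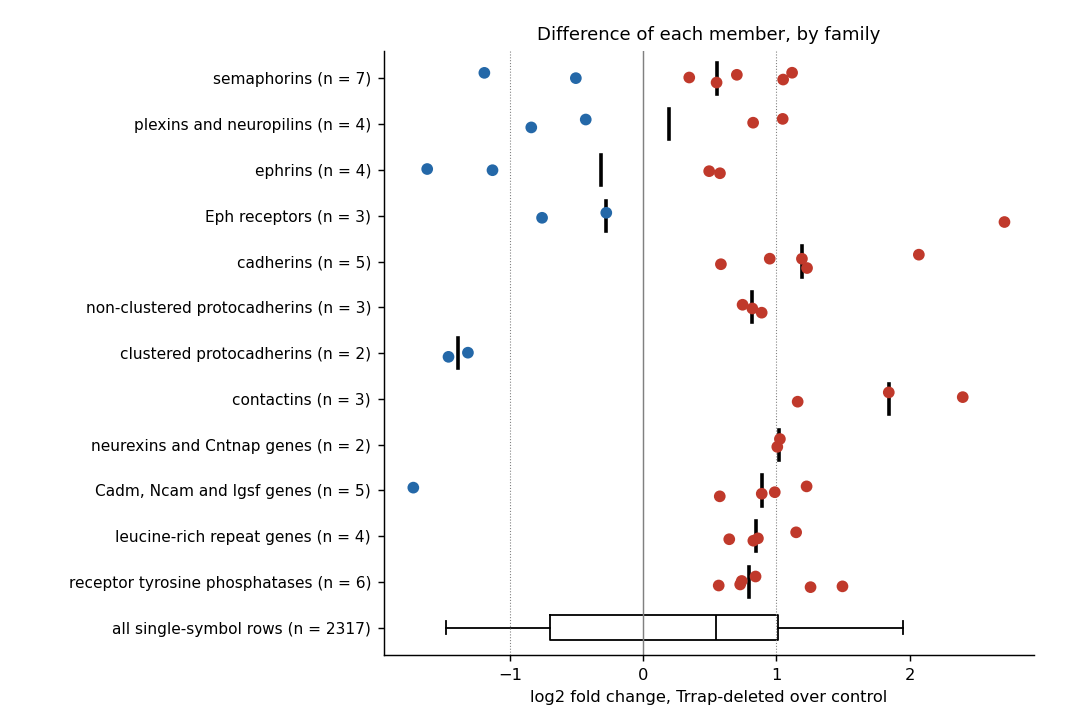
Log2 fold change (Trrap-deleted over control) of every member by family, red where higher and blue where lower, with black bars at the family median and dotted lines at 2-fold; the box at the bottom shows the median, quartiles and 5th to 95th percentiles of all 2317 rows. Contactins and cadherins lie farthest to the right by median (1.84 and 1.19), and the 2 clustered protocadherins lie on the left.

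All 5 listed cadherins were higher, also after rescaling to a median of 0, beside 58.4% of all rows as deposited. Their listed loci are all 100 kb or more, a length at which 69.1% of all rows were higher. All belong to the type II class of classical cadherins, which sort neurons by homophilic contact. Cdh22 rose most, from 0.447 to 1.88 FPKM (4.20-fold). Cdh6, which marks cortical areas, went from 4.09 to 9.61 FPKM (2.35-fold), and Cdh8, likewise used in area maps, from 15.4 to 35.2 FPKM (2.29-fold). Cdh12 was low in both libraries (0.294 and 0.568 FPKM), and its listed locus covers only 0.416 of the RefSeq gene. Cdh11, also known from mesenchyme, had the smallest difference (9.40 to 14.1 FPKM, 0.58 in log2), beside meningeal markers that were all higher. After rescaling to a median of 0, Cdh11 stood at 0.03 in log2. Cdh4 shares a row with another symbol and was not counted; that row went from 10.8 to 28.8 FPKM (2.65-fold). The locus listed for Cdh8 is 1.84 times the RefSeq gene length.

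Protocadherins split by genome layout. The 3 listed genes outside the clusters were higher, beside 58.4% of all rows. Pcdh10 went from 8.14 to 15.1 FPKM (1.85-fold), Pcdh9 from 6.51 to 11.5 FPKM (1.77-fold) and Pcdh1 from 2.42 to 4.06 FPKM (1.68-fold). The locus listed for Pcdh1 is 1.65 times the RefSeq gene length. The beta cluster, a tandem array of near-identical genes on chromosome 18 from which single neurons express different subsets, was lower in every listed row. Of all rows 41.6% were lower. Pcdhb9 (37560509 to 37563563) went from 0.581 to 0.211 FPKM and Pcdhb10 (37571328 to 37574168) from 0.561 to 0.226 FPKM. These are 2.75-fold and 2.49-fold lower at levels under 1 FPKM, and with a pseudocount of 1 their log2 differences shrink to -0.38 and -0.35. A pair of rows that pool several beta genes, and were not counted as members, pointed the same way: the row of Pcdhb3, Pcdhb5, Pcdhb6, Pcdhb7 and Pcdhb8 went from 5.92 to 2.997 FPKM (1.98-fold lower), and that of Pcdhb16, Pcdhb18 and Pcdhb19 from 4.42 to 2.01 FPKM (2.20-fold lower). Reads can be shared among such similar genes, so the values of single beta genes are uncertain. No single-symbol row came from the alpha or gamma cluster, and 55 of 57 annotated clustered genes were not listed as single genes.

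The contactins, lipid-anchored immunoglobulin proteins of axons, were the family with the highest median (1.84, 3.59-fold). All 3 listed were higher, also after rescaling to a median of 0, beside 58.4% of all rows as deposited. They too lie at loci of 100 kb or more, where 69.1% of all rows were higher. Cntn1, which pairs with Cntnap1 at the borders of the node of Ranvier, went from 2.82 to 10.1 FPKM on chromosome 15 (91881596 to 92172398). Cntn6 went from 0.174 to 0.920 FPKM (2.40 in log2) and Cntn3 from 0.716 to 1.60 FPKM (2.24-fold). Only Cntn1 reached 5 FPKM in either library. In the authors' deposited table its q-value was 0, and those of Cntn6 and Cntn3 were 1.18e-05 and 0.0125.

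Both listed members of the neurexin superfamily were higher by about the same factor, beside 58.4% of all rows higher. Cntnap2, which gathers potassium channels along myelinated axons and spans the longest member locus (2244 kb), went from 42.3 to 86.2 FPKM (2.04-fold). Nrxn2, a presynaptic organiser, went from 27.97 to 56.2 FPKM (2.01-fold). Of the listed binding partners of neurexins named here, only Cbln1 was lower, and it was named after its value was seen. Cbln1 is a secreted partner outside the families (4.33 to 2.16 FPKM). Its relatives Cbln2 (2.42 to 4.95 FPKM) and Cbln3 (0.303 to 0.766 FPKM) were higher. Higher partners were Lrrtm1 (8.79 to 15.6 FPKM, 1.78-fold), Lrrtm2 (2.71 to 4.92 FPKM, 1.82-fold) and Igsf21, a partner of Nrxn2 at inhibitory synapses (5.72 to 11.4 FPKM, 1.98-fold). The neuroligins, the best known partners, were not listed. The listed loci of Lrrtm1 and Lrrtm2 are 35.8 and 22.6 times the RefSeq gene length, so reads of other genes may be in their values.

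Other listed immunoglobulin adhesion genes were higher with 1 exception, beside 58.4% of all rows higher. Cadm2, a synaptic adhesion protein, went from 7.75 to 18.1 FPKM (2.34-fold), and its partner Cadm1 from 60.1 to 89.6 FPKM (1.49-fold). Ncam2 went from 3.33 to 6.18 FPKM (1.85-fold). Igsf9, an adhesion protein of dendrites (chromosome 1, 174411919 to 174429114), was the exception: it went from 60.2 to 18.2 FPKM, 3.30-fold lower and the largest decrease among the members, with a q-value of 8.92e-07 in the authors' deposited table. In the control it was level with Cadm1, and in the Trrap-deleted library it was far below. Of the remaining leucine-rich repeat genes, Lrrn2 went from 7.19 to 15.9 FPKM (2.22-fold) and Flrt1, which binds latrophilins, from 6.83 to 10.7 FPKM (1.57-fold), at a locus 1.79 times the RefSeq gene length.

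Receptor tyrosine phosphatases were higher in all 6 listed of 21 annotated genes, beside 58.4% of all rows. Their directions kept after rescaling to a median of 0, but some came close to 0. Rescaling to equal summed FPKM raises every log2 fold change, so it could not turn a higher gene lower. After rescaling to a median of 0, Ptprj stood at 0.02, Ptpra at 0.18 and Ptprf at 0.19 in log2. With a limit of 5 FPKM in the higher library 2 of the family remained, both higher. Ptprf, the LAR receptor of axons and synapses, went from 49.4 to 82.6 FPKM (1.67-fold), and Ptpra, which activates Src kinases, from 37.2 to 61.6 FPKM (1.66-fold). Ptprn and Ptprn2, inactive phosphatases of dense-core vesicles, went from 1.24 to 2.95 FPKM (2.39-fold) and from 2.74 to 4.92 FPKM (1.80-fold). Ptprj stood at 3.17 and 4.70 FPKM. Ptpre had the largest fold of the family (1.09 to 3.06 FPKM, 2.82-fold) and is also made by blood cells, whose listed markers were all higher. Leaving out Ptpre, Cdh11 and Plxnd1, the members on a short list of genes of blood, vessel or meningeal cells, 34 of 45 members were higher (75.6%), with a median of 0.82. That list is not complete, since Efnb2, Nrp2, Ptprj and Sema7a are also known from vessel or blood cells.

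Several whole families had no row of their own. None of 7 slits and robos, 11 netrin, Dcc and Unc5 genes, 7 neuroligins and teneurins, or 7 genes of the L1, Dscam, Lsamp and Opcml group was listed as a single gene. Ntn3 appears only in a row shared with Tbc1d24 (12.1 to 19.7 FPKM). In all, 48 of 251 annotated symbols of the families (19.1%) were listed, and 1837 of 21900 protein-coding symbols (8.39%). The 251 include 9 symbols of none of the groups named here, which the search by symbol also took, and none of these was listed. Both shares rest on matching symbols. Listed rows under names other than those of RefSeq are missed, so the second share may be too low. A gene has to be expressed to be listed, and which unlisted genes are expressed in this tissue cannot be seen from the table.

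By role, and apart from the receptor tyrosine phosphatases, the share of higher genes was largest in the adhesion families. Of the 24 listed adhesion genes 21 were higher (87.5%, median 0.92), of 11 semaphorins and ephrins 7 (63.6%, median 0.50), and of 7 plexins, neuropilins and Eph receptors 3 (42.9%, median -0.28), beside 58.4% and a median of 0.55 over all rows. The share of the cues is near that of all rows. The median of the receptors turns positive when the libraries are rescaled to equal summed FPKM, and that of the cues turns negative after rescaling to a median of 0. The receptor tyrosine phosphatases, left out of these counts, are receptors too, and all 6 listed were higher. The low share of the receptors therefore holds only for the plexins, neuropilins and Eph receptors. The difference between the roles was not tested.

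The members that were lower lay mostly at short listed loci. Lengths here are those of the listed loci, and 7 member loci are far from the RefSeq gene length. Among the higher members, Lrrtm1 and Lrrtm2 enter at 1098 and 136 kb, while their RefSeq genes span 30706 and 6022 bases. The median listed locus was 16.6 kb in the 11 lower members and 151 kb in the 37 higher ones, while over all rows it was 20.9 kb in lower and 35.1 kb in higher rows. Of the 10 members at loci under 20 kb, 7 were lower (Efna2, Efna4, Igsf9, Pcdhb9, Pcdhb10, Plxna3 and Sema6c) and only Efnb3, Ptprn and Sema6b were higher. Of the 38 at longer loci, 34 were higher (89.5%, against 64.4% of all rows of that length), and the exceptions were Epha4, Ephb1, Nrp2 and Sema7a. All 6 members that were at least 2-fold lower as deposited lie under 20 kb, but after rescaling to a median of 0 Ephb1 (433 kb, -1.31 in log2) and Sema7a (22.8 kb, -1.06) were also at least 2-fold lower. Under 20 kb, 49.5% of all rows were higher. Across the 48 members Spearman's rank correlation between locus length and log2 fold change was 0.41, and across all 2317 rows 0.15; the genes share the same pair of libraries and are not replicates. The limit of 20 kb was chosen after the values were seen.

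Level also moves with direction in this table, and a difference in this between the members and the other rows was not tested. With the rows divided by level into 5 equal groups, in the most abundant (mean above 51.4 FPKM) only 28.0% were higher, and among the 6 members there 4 were (Cadm1, Cntnap2, Efnb2 and Ptprf, with Epha4 and Plxna3 lower). In the least abundant (mean up to 2.82 FPKM) 78.7% of rows and 8 of 10 members were higher.

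**Figure D3:**
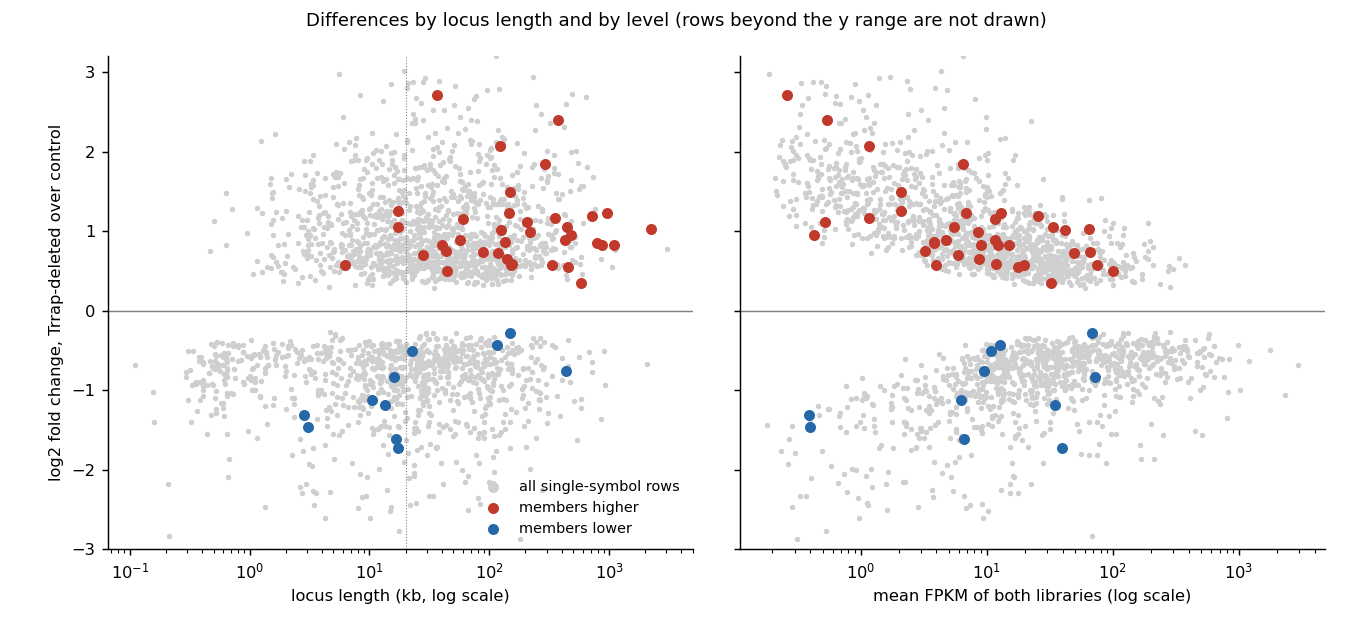
Log2 fold change (Trrap-deleted over control) against locus length (left, log axis, dotted line at 20 kb) and against the mean FPKM of both libraries (right, log axis), with members in red (higher) and blue (lower) and all single-symbol rows in grey; 29 rows lie beyond the range of the vertical axis. Blue members gather left of the dotted line, and the gap around 0 is there because only loci that passed the authors' test are in the table.

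Genes that act inside the cell downstream of these receptors were mostly lower. Of 64 cytoplasmic effectors of guidance receptors 15 were listed, 13 lower and 2 higher, with a median log2 fold change of -0.48. Dpysl3, a collapsin response mediator protein that links semaphorin receptors to microtubules, went from 374 to 127 FPKM (2.95-fold lower). Its relative Dpysl4 went from 31.1 to 14.6 FPKM (2.14-fold lower), and Pak1, a kinase downstream of Rac and Cdc42, from 40.5 to 21.04 FPKM (1.93-fold lower). All 5 genes of this protein family, Crmp1, Dpysl2, Dpysl3, Dpysl4 and Dpysl5, were lower by 0.44 to 1.56 in log2 units. The larger of the increases was in Mical2, an actin-oxidising enzyme of a family that acts downstream of plexins (1.47 to 3.74 FPKM). These genes are abundant: 7 of the 15 lie in the most abundant of the 5 groups of rows and were all lower, beside 28.0% of those rows higher, and 5 more lie in the group of rows next in level, also all lower, beside 56.6% higher. The part of level in this pattern was not tested.

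The lists of membrane partners outside the families are read beside the 58.4% of all rows that were higher. All 4 listed of 34 catenins and membrane anchors were higher (3 after rescaling to a median of 0), led by the synaptic scaffold Dlg4 (141 to 237 FPKM) and Epb4.1l2, a membrane skeleton protein (19.1 to 30.2 FPKM). Ctnnd2, a catenin that binds cadherins, stood at 20.4 and 32.1 FPKM, and Epb4.1l5 at 9.60 and 12.9 FPKM. Of 36 synaptic organisers outside the families 12 were listed and 11 were higher (8 after rescaling to a median of 0), with a median of 0.70. The largest fold was in Lgi3, a secreted protein, at low levels (0.0873 to 0.369 FPKM, 4.23-fold), followed by Bai2, an adhesion receptor (35.995 to 94.5 FPKM, 2.63-fold). The cerebellins Cbln3 (0.303 to 0.766 FPKM) and Cbln2 (2.42 to 4.95 FPKM) were higher, and their relative Cbln1 was the exception. A further list of 58 guidance and adhesion genes had 13 listed, 8 higher and 5 lower, a share near that of all rows (6 and 7 after rescaling to a median of 0, where its median of 0.54 turns to -0.0125). There Thy1, a neuronal surface protein (1.45 to 4.67 FPKM), and Negr1, a relative of Lsamp (9.24 to 22.3 FPKM), were higher, and the brain matrix genes Bcan (13.5 to 4.96 FPKM) and Tnc (9.25 to 4.45 FPKM) were lower.

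**Figure D4:**
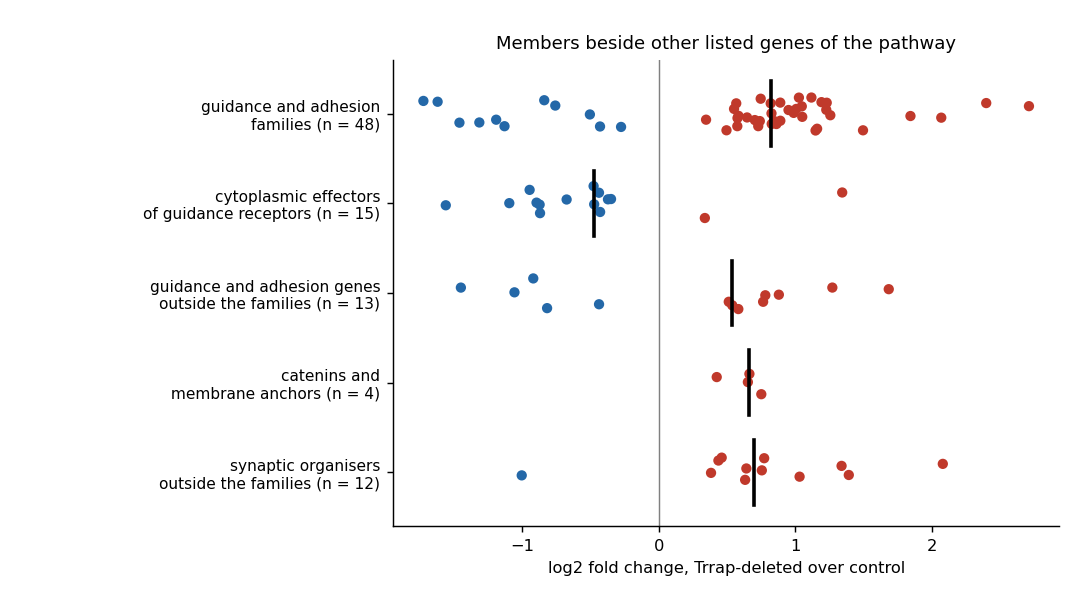
Log2 fold change (Trrap-deleted over control) of the 48 members and of the listed genes of the 4 other pathway lists, red where higher and blue where lower, with black bars at the medians. The members' median is 0.82 and that of the cytoplasmic effectors -0.48.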

How the data were processed

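RNA sequencing was compared between 1 control and 1 Trrap-deleted library. Per the labels, total RNA (2.5 µg a library) was prepared with a TruSeq kit. The submitters' processing notes name TopHat2 and build mm9. The counting and testing software and its strand setting were not given in the sources used here. Read totals are likewise missing from them, which leaves the depth unknown and allows no interval. The authors deposited 1 table of the loci they called significant. Its deposited value columns were read as FPKM, which the Cuffdiff layout implies and the file does not state; a log2 fold change, p-value and q-value are the authors' deposited values. Log2 fold changes were recomputed without a pseudocount and differed from the deposited ones by at most 1.18e-05. Coordinates are mm9, 1-based. Overlapping genes on opposite strands may share reads.

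Members were rows with a single symbol of the named families and both values above 0 (48 rows, 48 symbols). Gene types and lengths came from RefSeq (GRCm38.p6), where all 48 symbols matched; no coordinate was moved between builds. Counts and medians are set beside those of all 2317 single-symbol rows; with 1 library a group, no test was run. Members and lists were chosen with earlier results of these data known. Values are given for every member, and for context lists up to 4 genes with the largest change; Cbln1, Crmp1, Dpysl2 and Dpysl5 were named after their values were seen. Python 3.11.15, pandas 2.3.3 and scipy 1.17.1 were used, and the arithmetic of direction and fold calls was checked on simulated data. Alternatives were a limit of 1 or 5 FPKM, pseudocounts of 0.1 and 1, 2 rescalings, a q-value under 0.01, one row per symbol, narrower families, leaving out 3 members on a blood, vessel and meninges list, and no sex chromosomes.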

Additional observations from a re-analysis of the deposited data

How the results depend on the processing

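Most members were higher under every alternative run. Leaving aside the alternatives chosen after seeing the data, 72.9% (rescaled to a median of 0) to 80.6% (q-value under 0.01) were higher. The median log2 fold change lay between 0.27 (rescaled to a median of 0) and 1.17 (rescaled to equal summed FPKM). A pseudocount cannot turn a direction, and one row per symbol kept the same rows. Those alternatives therefore could not change the counts of higher and lower members. The count of members at least 2-fold higher, 16 as deposited, was 9 at 5 FPKM or more, 7 with a pseudocount of 1, 4 rescaled to a median of 0 and 29 rescaled to equal summed FPKM. The 6 members at least 2-fold lower became 3 with a pseudocount of 1, 3 rescaled to equal summed FPKM and 9 rescaled to a median of 0. For the 2-fold counts under these alternatives, the share of all rows was not computed. At a q-value under 0.01, 6 of 31 members were lower. Without loci under 20 kb, chosen after seeing the data, 4 of 38 were lower and 0 were at least 2-fold lower. There 89.5% of members were higher, beside 64.4% of all rows of that length. Rescaled to a median of 0, log2 fold changes turned to -0.0549 in Efnb2 and -0.204 in Sema6d, and the median of guidance and adhesion genes outside the families turned to -0.0125; rescaled to equal summed FPKM, Epha4 turned to 0.0703. Also chosen after seeing the data, counting rows with several symbols gave 39 of 52 higher, beside 58.0% of all rows. Leaving out 7 loci far from the RefSeq gene length gave 31 of 41, beside 58.4% of all rows. No paired analysis was possible because each genotype had 1 library, and no replicate could be left out.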
